A study of Homo sapiens with 6 samples.

Results

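The genes described here encode ligands, receptors, secreted binding proteins, antagonists and nuclear effectors of the TGF-beta and BMP branches of the TGF-beta superfamily. They are 41 genes picked by symbol from a count table of 58735 gene rows, of which 36 passed the filter on low counts of the main test and 5 did not. RNA sequencing was done on 3 cultures of untreated PANC1, an established human pancreatic ductal adenocarcinoma line, and on 3 cultures of PANC1OR, a subline obtained by passaging PANC1 in oxaliplatin at rising concentration. Oxaliplatin is a platinum compound that damages DNA. Both lines grew in DMEM with fetal bovine serum. The submitters describe the resistant state as lasting without drug and through freezing, and the sources used here do not say if oxaliplatin was in the medium when RNA was taken. PANC1OR is 1 selected line, so a p-value here reflects the variation among cultures of that line and of its parent, not among separately derived resistant lines. The comparison asks which of these genes differ in RNA level between the resistant and the parental line.

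TGF-beta, activin, BMP and GDF ligands are secreted dimers that bring together type II and type I serine/threonine kinase receptors, which phosphorylate SMAD proteins that then act on genes in the nucleus. TGF-beta leaves the cell in a latent complex, which latent TGF-beta binding proteins can tether to the matrix, while BMPs and activins are held in check by secreted antagonists such as gremlin, noggin and follistatin. In the pancreas TGF-beta restrains the growth of duct epithelium, and pancreatic carcinomas often lose parts of this response through the gene of the shared mediator SMAD4.

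Of the 36 tested members, 10 were higher in PANC1OR and 7 were lower (edgeR's quasi-likelihood test with Benjamini-Hochberg adjustment over 18751 tested genes, called at an adjusted p under 0.05). Of all tested genes 17.8% were called, 10.3% higher and 7.5% lower. LTBP1, BMP6, GDF11, INHBA, INHBB, ACVR1, ACVR2B, GREM1, NOG and FST rose. LTBP2, TGFBR3, BMP7, FSTL1, ID2, ID4 and TGIF1 fell. Of the called members, 4 (BMP7, INHBA, GREM1 and FST) passed the filter on low counts through 1 line only, and had to differ to be tested. The count of 17, and the member counts from other fits and cutoffs given below, are therefore descriptions. The median log2 fold change (PANC1OR minus PANC1) of the 36 tested members was 0.42, against 0.04 for all tested genes. The member median was 0.26 without PANC1OR replicate 3, and 0.39 with offsets for GC content. It was 0.19 without PANC1 replicate 2 and PANC1OR replicate 3. INHBA, GREM1 and FST passed the filter only through PANC1OR, and BMP7 only through PANC1. The called count was 10 without PANC1 replicate 1 and 10 without PANC1 replicate 3, when 9.86% and 9.31% of all genes were called, and 24 without PANC1OR replicate 3, when 44.1% were called. The 7 that this last fit added were TGFB2, LTBP3, TGFBR2, BMPR1A, ID3, TGFBI and SKI. It was 27 with offsets for GC content (39.1% of all genes), which added TGFB1, TGFB2, LTBP3, LTBP4, TGFBR2, BMPR1A, FSTL3, ID1, TGFBI and SKIL. It was 20 by DESeq2 (15.8%), which added LTBP3, TGFBR2 and BAMBI, and 8 with an absolute log2 fold change over 2 and an adjusted p under 0.01 (6.25%). LTBP1, LTBP2, TGFBR3, BMP7, INHBA, GREM1, FST, FSTL1 and ID2 were called whichever 1 library was left out. For BMP7, INHBA, GREM1 and FST this too is a description, since they passed the filter through 1 line only.

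**Figure D1:**
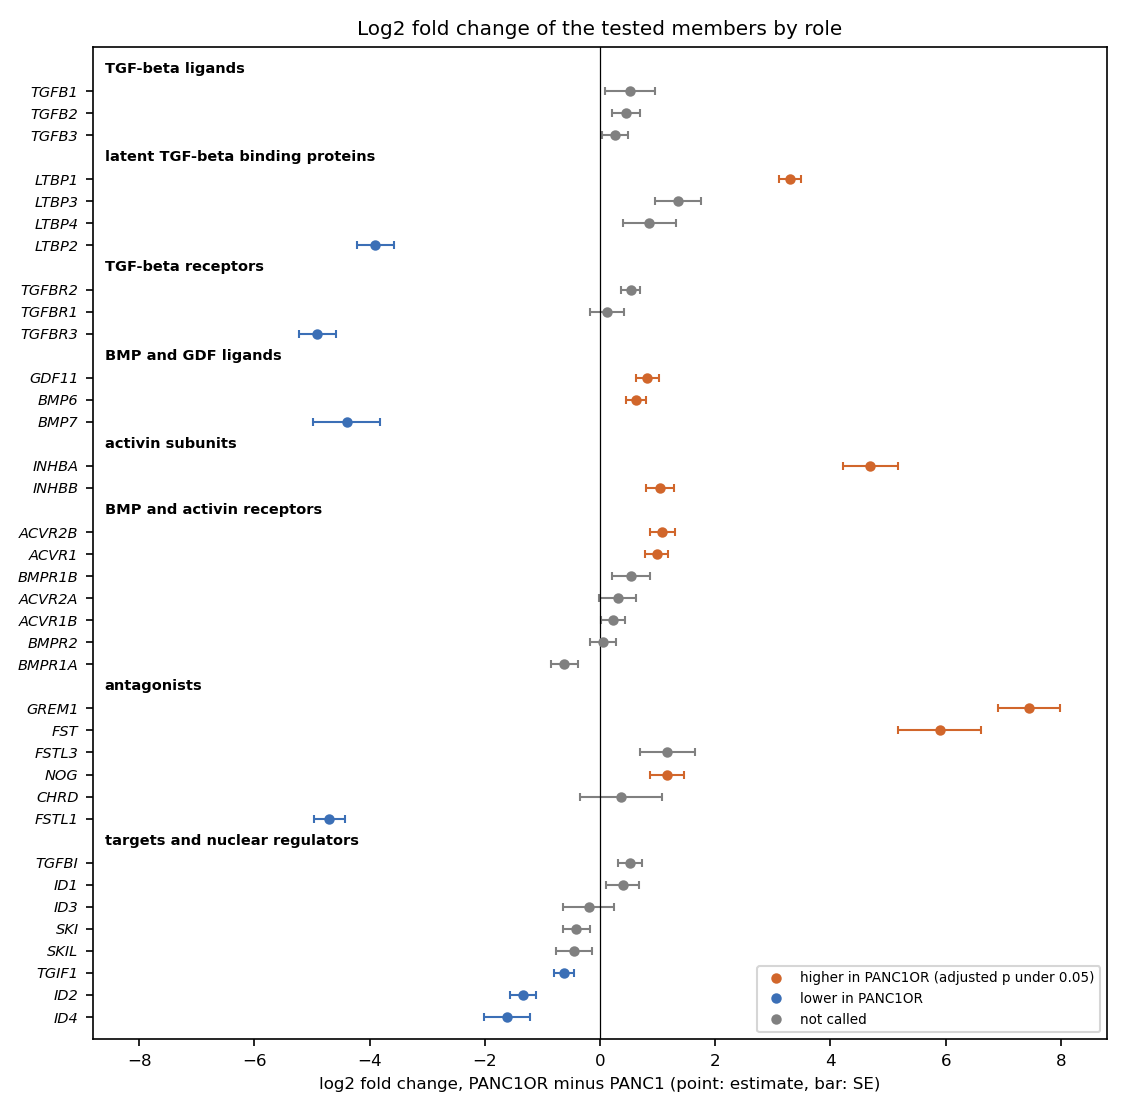
Log2 fold change of the 36 tested members with its standard error, grouped by role, with genes called higher in orange, called lower in blue and not called in grey. GREM1 lies farthest to the right at 7.45 and TGFBR3 farthest to the left at -4.91, while the 3 TGF-beta ligands lie between 0.26 and 0.52 and are grey.

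The libraries held 10199268 to 26394388 reads, and 27848 to 31939 genes had at least 1 read. PANC1OR replicate 3 stood apart from the other PANC1OR libraries by base composition: relative to the mean of the other libraries of its line, genes with over 60% GC had a median log2 difference of 1.23 and genes with under 40% GC one of -0.88. PANC1 replicate 2 leaned the same way by less, at 0.31 and -0.23. The members followed this pattern. The 6 tested members with over 60% GC were higher in PANC1OR replicate 3 than in replicates 1 and 2 by a median of 1.48 (range 0.68 to 1.68) on the log2 scale, and the 9 with under 40% GC were lower (median -0.58). None of the former, 3 of the latter and 14 of the 21 in between were called, where 17.8% of all tested genes were called. Values without that library are given where it changes a call of a named gene or moves its fold change by over 1.5 times. Of the markers used to check the cell type, the 8 epithelial genes summed to 1070 to 1960 CPM (counts divided by the library size after TMM scaling) across PANC1 and 687, 702 and 1400 CPM in PANC1OR. Within that list 3 genes fell and none rose: KRT19 (log2 fold change -3.81 ± 0.43, adjusted p = 0.000635), CDH1 (-1.22 ± 0.22, adjusted p = 0.00613) and SOX9 (-0.67 ± 0.19, adjusted p = 0.0447). The number that fell was 2 without any 1 library other than PANC1OR replicate 3, and 2 without the low-count filter. It was 5 without PANC1OR replicate 3, when 44.1% of all genes were called. The 7 fibroblast genes summed to 83.5 to 99.4 CPM and to 122, 115 and 300 CPM, nearly all of it COL1A1, the 5 leukocyte genes to at most 0.436 and 4.95 CPM, most of the latter CD14, and the 4 endothelial genes to at most 0.627 CPM. COL1A1 was not called with all libraries (0.98 ± 0.38, adjusted p = 0.123). Without PANC1OR replicate 3 its log2 fold change was 0.35 (adjusted p = 0.0376). The part of the marker genes in the results below was not tested, and in these bulk samples fewer cells of a type and less RNA per cell cannot be told apart.

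**Figure D2:**
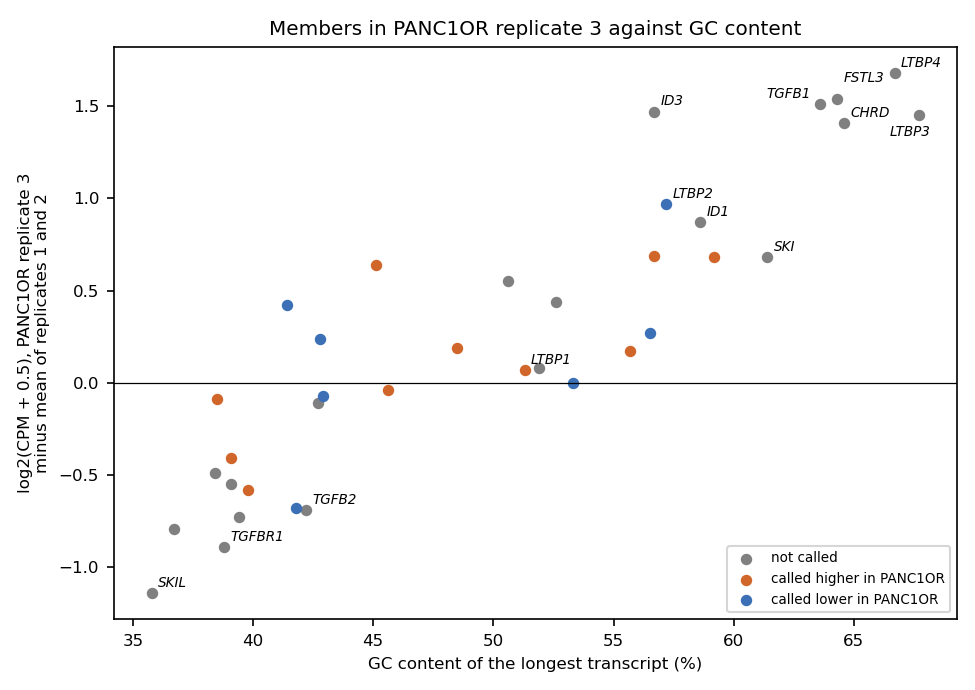
Difference in log2(CPM + 0.5) between PANC1OR replicate 3 and the mean of replicates 1 and 2 for each tested member, against the GC content of its longest transcript in percent. The 6 members with over 60% GC lie between 0.68 and 1.68, the 9 with under 40% GC between -1.14 and -0.09, and the called members (coloured) are mostly in between.

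Transcripts of the 3 TGF-beta ligands were present in both lines, and none was called. TGFB1, the main ligand in most epithelia, had 31.5, 48.7 and 34.1 CPM in PANC1 (replicates 1 to 3, the order used throughout) and 36.3, 30.8 and 96.4 CPM in PANC1OR. The single high value was that of PANC1OR replicate 3, and the remaining libraries overlapped. Its log2 fold change was 0.52 ± 0.43 (SE; adjusted p = 0.492) with all libraries and -0.18 without that one (adjusted p = 0.475). TGFB2 stood at 28.6, 26.8 and 27.2 CPM in PANC1 and at 42.7, 43.7 and 26.7 CPM in PANC1OR, where replicate 3 was the low one. The log2 fold change of TGFB2 was 0.45 ± 0.24 (adjusted p = 0.253), and without PANC1OR replicate 3 it was 0.64 with an adjusted p of 0.00226. TGFB3 was scarcer, at 5.29, 5.12 and 6.48 CPM against 6.91, 6.37 and 7.02 CPM (0.26 ± 0.22, adjusted p = 0.495). Per kb of exon, TGFB1 made up 66.9 ± 5.73% of the summed level of the 3 ligands in PANC1 and 64.5 ± 16.7% in PANC1OR (SD, n = 3). The latter mean rests on PANC1OR replicate 3, at 83.7%, since replicates 1 and 2, at 57.1% and 52.8%, were below the lowest PANC1 library, at 62.7%.

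Of the 4 latent TGF-beta binding proteins, LTBP1 rose, LTBP2 fell and the other two were not called. LTBP1, which is joined to the latent TGF-beta complex in the secretory pathway and ties it to fibrillin and fibronectin, had 43.7, 34.8 and 45.3 CPM in PANC1 and 407, 393 and 421 CPM in PANC1OR. All PANC1OR libraries were far above all PANC1 libraries, and the replicates of each line lay close together. The difference was 9.86-fold (log2 fold change 3.30 ± 0.19, adjusted p = 3.48e-05). LTBP2, a matrix protein of elastic fibres that, unlike its relatives, does not bind latent TGF-beta, went the other way, from 394, 345 and 373 CPM to 19.1, 18.5 and 37.4 CPM. It was 14.9-fold lower (log2 fold change -3.90 ± 0.32, adjusted p = 0.000142), with PANC1OR replicate 3 the highest of its line but still far below PANC1. On the scale of CPM per kb of exon, which allows levels of different genes to be set side by side, LTBP2 made up 75.8 ± 0.586% of the summed level of the 4 family members in PANC1 and 3.61 ± 0.835% in PANC1OR, and LTBP1 made up 10.4 ± 0.905% and 75.9 ± 10.8% (SD, n = 3), the lowest PANC1OR share of LTBP1 being 63.5%.

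LTBP3 and LTBP4, which also carry latent TGF-beta, were not called by the main test. LTBP3 had 38.2, 40.5 and 39.9 CPM in PANC1 and 68.2, 60.8 and 177 CPM in PANC1OR, so the lines did not overlap but PANC1OR replicate 3 was far above its partners. Its log2 fold change was 1.36 ± 0.40 (adjusted p = 0.0503) and 0.70 without that library (adjusted p = 0.00147). DESeq2 called it (adjusted p = 0.0114). LTBP4 had 35.9, 29.4 and 32.5 CPM against 36.4, 31.2 and 109 CPM, again with 1 high library, and its log2 fold change of 0.85 ± 0.46 (adjusted p = 0.265) was 0.04 without it and 0.67 with GC offsets (adjusted p = 0.0114). Exons of LTBP1 (ENSG00000049323, chromosome 2 at 32946953 to 33399509, GRCh38, plus strand) overlap ENSG00000285577 on the opposite strand, which had 20 reads in PANC1 and 263 in PANC1OR against 1776 and 22293 for LTBP1 itself. Those of LTBP2 (ENSG00000119681, chromosome 14 at 74498183 to 74612378, minus strand) overlap ENSG00000258425, with 62 and 3 reads. The sources used here do not give the strand setting of the counting, so reads of such partners cannot be told apart.

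**Figure D3:**
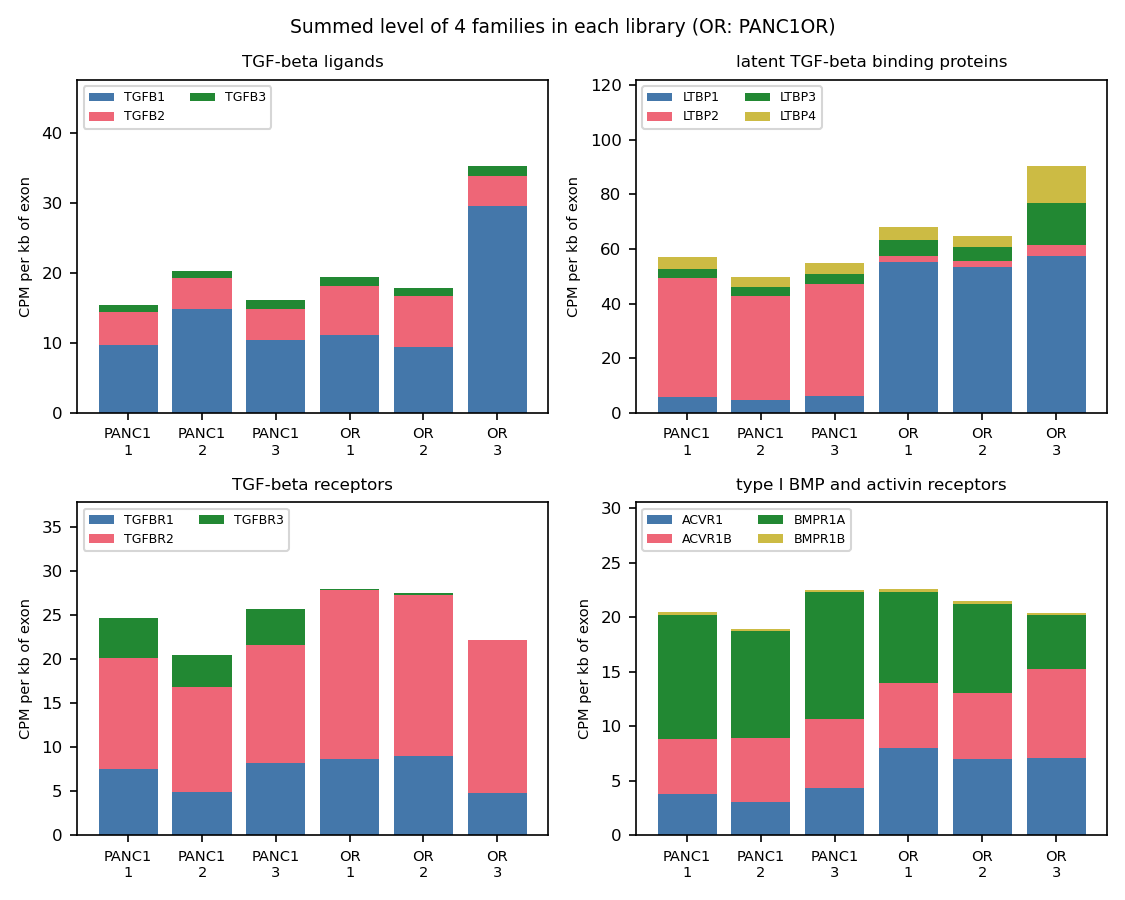
Stacked bars of CPM per kb of exon in each of the 6 libraries for the TGF-beta ligands, the latent TGF-beta binding proteins, the TGF-beta receptors and the type I BMP and activin receptors, with 1 colour per gene. LTBP2 fills most of the bar in the 3 PANC1 libraries and LTBP1 in the 3 PANC1OR libraries, and the TGFBR3 segment of 17.4% in PANC1 is 0.498% in PANC1OR.

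Among the TGF-beta receptors, the co-receptor fell to a low level and neither kinase receptor was called. TGFBR3, or betaglycan, a membrane proteoglycan that presents TGF-beta, TGF-beta 2 above all, to the type II receptor and also binds inhibin, had 38.7, 31.9 and 35 CPM in PANC1 and 1.42, 1.31 and 0.661 CPM in PANC1OR. The lowest PANC1 library was far above the highest PANC1OR library. TGFBR3 was 30.0-fold lower (log2 fold change -4.91 ± 0.32, adjusted p = 5.6e-05), with a range of -5.13 to -4.68 over the fits that left out 1 library. TGFBR2, the type II receptor that binds the ligand, had 86.5, 81.5 and 92 CPM in PANC1 and 132, 125 and 119 CPM in PANC1OR. Its libraries did not overlap, but the difference missed the threshold (0.53 ± 0.16, adjusted p = 0.0576) and passed it without PANC1OR replicate 3 (0.56, adjusted p = 0.00358) and by DESeq2 (adjusted p = 0.0335). TGFBR1, the type I kinase, had 60.1, 39 and 65.5 CPM against 69.1, 71.9 and 37.7 CPM, with the low values in PANC1 replicate 2 and PANC1OR replicate 3, and was not called (0.12 ± 0.30, adjusted p = 0.843; 0.34 without PANC1OR replicate 3). Per kb of exon, TGFBR2 was the highest of the 3 in both lines, at 53.8 ± 3.73% and 71.2 ± 6.28% of their sum. TGFBR3 (ENSG00000069702) lies on chromosome 1 at 91680343 to 91906335, minus strand.

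All 3 BMP and GDF ligands that passed the filter were called. BMP6, known for its part in iron sensing, was the most abundant of them per kb of exon and had the smallest log2 fold change, going from 42.5, 45.2 and 41.6 CPM to 65.4, 61.7 and 71.4 CPM (log2 fold change 0.62 ± 0.17, adjusted p = 0.0422). GDF11, a ligand of activin receptors close to myostatin, had 17.1, 20.7 and 15.8 CPM in PANC1 and 30.6, 29.5 and 34.3 CPM in PANC1OR (0.82 ± 0.20, adjusted p = 0.0274). For both genes every PANC1OR library was above every PANC1 library, yet the call was lost for BMP6 without any 1 of the libraries other than PANC1OR replicate 3 (largest adjusted p 0.201) and without the low-count filter (0.117), and for GDF11 without any 1 library except PANC1 replicate 2 and PANC1OR replicate 3 (largest 0.156). BMP7, a ligand of ACVR1 and BMPR1 receptors, was low in PANC1 at 1.74, 2.51 and 2.02 CPM and at 0.112, 0 and 0.165 CPM in PANC1OR, which is 85 reads against 5. The lines did not overlap, and it fell by 4.40 on the log2 scale (SE 0.58, adjusted p = 0.00138). Exons of BMP6 and GDF11 overlap TXNDC5 and SARNP on the opposite strand.

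The other 4 BMP and GDF ligands were removed by the low-count filter, and without it none was called. BMP4 had 2, 2 and 6 reads in PANC1 and 0, 0 and 1 in PANC1OR, a ratio of PANC1 to PANC1OR of 13.1 after scaling (95% counting interval 1.86 to 567, which covers counting error only), and its adjusted p without the filter was 0.112. BMP2 had 7 reads in PANC1 and 5 in PANC1OR, and GDF5 14 and 24. GDF6 had no read in any library, which allows up to 0.0715 CPM in PANC1 and 0.0547 CPM in PANC1OR (3 reads per group).

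Both activin beta subunits were higher in PANC1OR. INHBA, which encodes the subunit of activin A, had 1 read in each PANC1 library and 67, 32 and 19 reads in PANC1OR, or 2.5, 2 and 1.57 CPM. The ratio of the summed counts after scaling was 30.1 (95% counting interval 10.0 to 148), and the fitted log2 fold change was 4.69 ± 0.48 (adjusted p = 0.00039). INHBB, the subunit of activin B, was the more abundant of the pair in both lines, at 19.6, 22.7 and 18.8 CPM in PANC1 and 35, 34.3 and 56.3 CPM in PANC1OR. No library of one line reached the other, and the log2 fold change was 1.04 ± 0.25 (adjusted p = 0.025). Without PANC1OR replicate 3 it was 0.76 (adjusted p = 0.00205), and the call was lost without any 1 of the PANC1 libraries (largest adjusted p 0.131). Per kb of exon, INHBB stood at 6.35 in PANC1 and 13.1 in PANC1OR, and INHBA at 0.00917 and 0.244 CPM per kb. INHBA (ENSG00000122641, chromosome 7 at 41667168 to 41705834, minus strand) shares exonic bases with INHBA-AS1, which had 1 and 6 reads.

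Of the 7 receptors for BMPs and activins, 2 rose and 5 were not called. ACVR1, the type I receptor also known as ALK2, had 37.3, 29.9 and 42.6 CPM in PANC1 and 79, 68.7 and 69.4 CPM in PANC1OR, with a clear gap between the lines (log2 fold change 0.98 ± 0.20, adjusted p = 0.0118). ACVR2B, a type II receptor of activins and GDF11, had 10.6, 7.52 and 9.48 CPM against 19.7, 19.7 and 19.2 CPM (1.08 ± 0.22, adjusted p = 0.0101). Its PANC1OR libraries were nearly level. The call of ACVR1 was lost without PANC1 replicate 1 or PANC1OR replicate 1 (largest adjusted p 0.0673) and that of ACVR2B without PANC1 replicate 3 (0.0636).

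BMPR1A, the type I receptor for BMP2 and BMP4, had 115, 99.6 and 118 CPM in PANC1 and 83.8, 82.1 and 50 CPM in PANC1OR. The lines did not overlap, but the log2 fold change of -0.62 ± 0.24 missed the threshold (adjusted p = 0.117). Without PANC1OR replicate 3 it was -0.43 with an adjusted p of 0.0174. As shares of the summed level per kb of the 4 type I receptors, BMPR1A stood at 53.3 ± 1.99% in PANC1 and 33.0 ± 7.53% in PANC1OR, and ACVR1 at 17.9 ± 1.72% and 34.2 ± 1.53% (SD, n = 3). BMPR2, the main type II receptor for BMPs, was at 203, 146 and 196 CPM against 215, 206 and 144 CPM (0.05 ± 0.22, adjusted p = 0.91), and made up 81.2 to 87.5% of the summed level per kb of the 3 type II receptors over the 6 libraries. ACVR1B, ACVR2A and the low BMPR1B had log2 fold changes of 0.23, 0.31 and 0.53, with adjusted p-values of 0.533, 0.583 and 0.33.

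**Figure D4:**
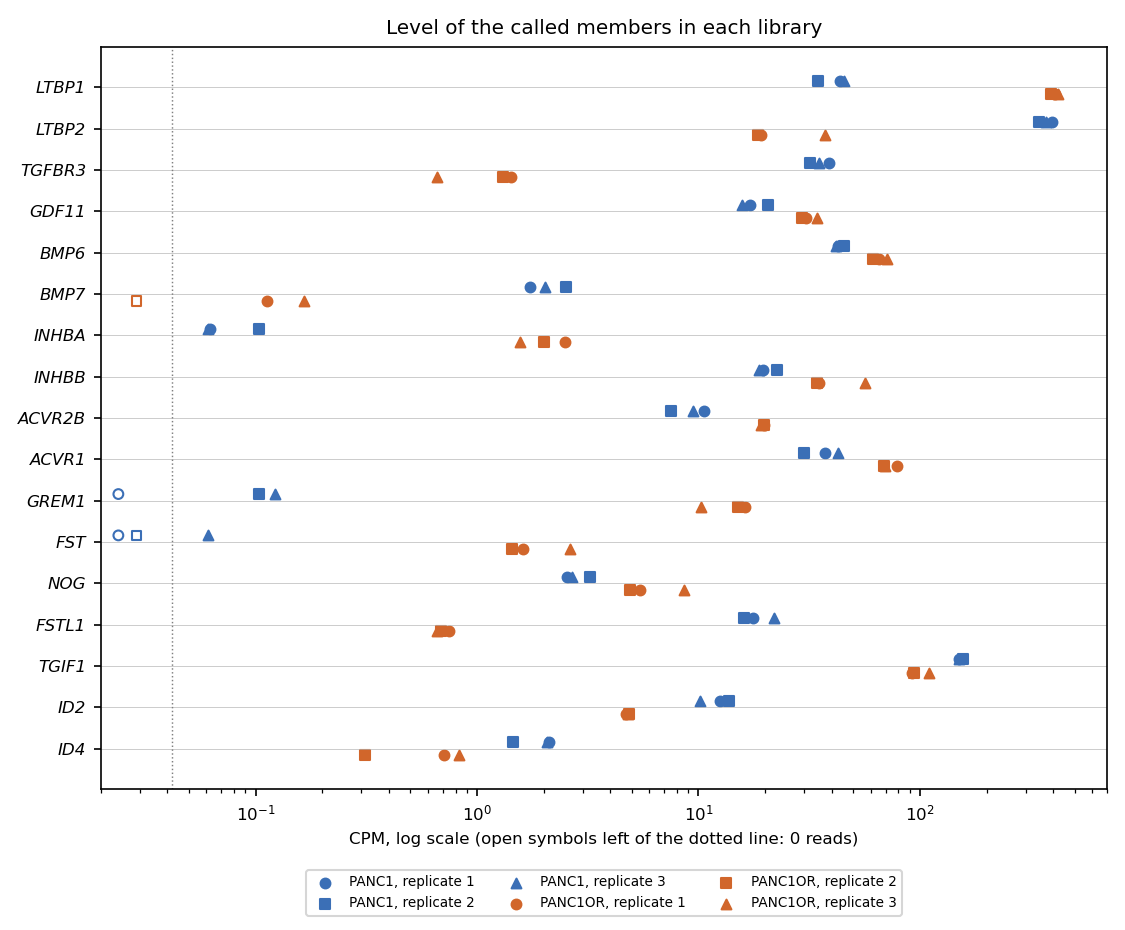
CPM on a log axis of the 17 called members in each library, PANC1 in blue and PANC1OR in orange, with a symbol shape per replicate and open symbols left of the dotted line for 0 reads. The 2 colours do not overlap in any row, and GREM1, FST and INHBA are at 0.122 CPM or less in every PANC1 library.

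Among the antagonists, GREM1, NOG and FST rose and FSTL1 fell, while CHRD and FSTL3 were not called and BAMBI did not pass the low-count filter. Of the members with large differences, 4 are shown by the sequence upstream of their RefSeq transcription start (assembly GRCh38.p14). GREM1 and INHBA were almost silent in PANC1, with 3 reads each. FSTL1 and TGFBR3 were low but present in PANC1OR, with 39 and 67 reads. Capitals mark GGCGCC, a GC-rich SMAD-binding letter string, in GREM1 and FSTL1, and TATAAA, the TATA box letters, in INHBA. The GREM1 stretch is chr15:32717754-32718003 on the plus strand, and the others lie on the minus strand at chr7:41703091-41703340 for INHBA, chr3:120451017-120451242 for FSTL1 and chr1:91886152-91886401 for TGFBR3. Bases that GENCODE places in an exon are left out of the FSTL1 stretch.
GREM1: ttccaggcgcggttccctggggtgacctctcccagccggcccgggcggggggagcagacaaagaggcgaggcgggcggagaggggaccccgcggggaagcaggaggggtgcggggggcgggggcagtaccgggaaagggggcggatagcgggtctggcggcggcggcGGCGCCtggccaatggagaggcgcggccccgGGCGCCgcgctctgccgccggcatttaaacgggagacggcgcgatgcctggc
INHBA: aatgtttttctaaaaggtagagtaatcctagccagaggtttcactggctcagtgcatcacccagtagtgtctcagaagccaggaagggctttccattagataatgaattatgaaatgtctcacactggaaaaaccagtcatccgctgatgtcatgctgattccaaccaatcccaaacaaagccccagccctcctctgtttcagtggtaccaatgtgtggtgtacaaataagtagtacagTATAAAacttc
FSTL1: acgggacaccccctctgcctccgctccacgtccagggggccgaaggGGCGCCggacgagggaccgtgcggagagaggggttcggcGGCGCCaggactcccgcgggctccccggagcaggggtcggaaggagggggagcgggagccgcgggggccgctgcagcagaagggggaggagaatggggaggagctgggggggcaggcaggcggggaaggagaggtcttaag
TGFBR3: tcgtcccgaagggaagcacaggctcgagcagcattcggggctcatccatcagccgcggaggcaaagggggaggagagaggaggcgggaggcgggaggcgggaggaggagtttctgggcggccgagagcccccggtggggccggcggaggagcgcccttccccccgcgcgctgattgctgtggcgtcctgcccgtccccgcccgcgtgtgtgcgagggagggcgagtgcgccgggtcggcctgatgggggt

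Both directions of change included windows with a CpG ratio above the median. In the 250 bases before the start, GREM1 held 32 CpG sites (observed over expected ratio 0.931), FST 20 (0.926), TGFBR3 28 (0.872), FSTL1 24 (0.78) and LTBP2 23 (0.778), against a median ratio of 0.558 over 35116 RefSeq windows of the same length. In the same gene order, 85.0%, 84.5%, 78.4%, 67.7% and 67.5% of all windows had a ratio no higher than these. INHBA held 1 CpG site (0.088) and 1 TATAAA, which 10.7% of all windows hold. GGCGCC occurred 2 times in GREM1, 2 times in FSTL1 and 1 time in LTBP2, and 16.4% of all windows hold it. The windows of GREM1, FSTL1 and LTBP2 had 76.8%, 74.4% and 68.8% GC, against a median of 58.0% over all windows. In the LTBP2 window 141 bases lie in GENCODE exons. GTCTAGAC, the palindromic SMAD element (0.182% of windows), and TGACTCA, the AP-1 letters (4.2%), were in none of these 6 windows. Both strands were searched, and a match of letters is a description of the window. RefSeq windows were matched for 36 of the 41 members. The windows of INHBA and TGFBR3 lie inside the longer gene bounds of GENCODE release 44, outside its exons, and which start the cells use was not measured.

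GREM1, gremlin 1, a secreted protein that binds and blocks BMP2, BMP4 and BMP7, had the largest log2 fold change of the 36 tested members. It had 0, 1 and 2 reads in PANC1 and 435, 242 and 125 reads in PANC1OR, or 16.3, 15.1 and 10.3 CPM. The ratio of the summed counts after scaling was 205 (95% counting interval 69.7 to 994). The fitted log2 fold change was 7.45 ± 0.54 (adjusted p = 7.98e-05), and it was 6.81 without PANC1 replicate 1 and 8.19 without PANC1 replicate 3. GREM1 (ENSG00000166923) lies on chromosome 15 at 32718004 to 32745106, plus strand, and shares exonic bases with GREM1-AS1, which had 0 reads in PANC1 and 11 in PANC1OR.

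FST, follistatin, which binds activins and GDF11, was also near silence in PANC1. It had 0, 0 and 1 reads there and 43, 23 and 32 reads in PANC1OR, or 1.61, 1.44 and 2.64 CPM. The scaled ratio was 75.0 (95% counting interval 13.1 to 2990). The fitted log2 fold change was 5.90 ± 0.72 (adjusted p = 0.000991), and without PANC1 replicate 3, which held the single read, it was 7.92. FST (ENSG00000134363) lies on chromosome 5 at 53480626 to 53487134, plus strand. NOG, noggin, an antagonist of BMPs, had 2.55, 3.24 and 2.69 CPM in PANC1 and 5.42, 4.93 and 8.59 CPM in PANC1OR, with no overlap (1.16 ± 0.30, adjusted p = 0.0298). Its call was lost without any 1 PANC1 library or PANC1OR replicate 1 (largest adjusted p 0.137).

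FSTL1, a follistatin-like secreted glycoprotein, had 17.6, 16 and 21.9 CPM in PANC1 and 0.748, 0.687 and 0.661 CPM in PANC1OR. It was 26.0-fold lower (log2 fold change -4.70 ± 0.27, adjusted p = 3.48e-05), and the PANC1OR libraries lay within a narrow band. FSTL1 (ENSG00000163430, chromosome 3 at 120392293 to 120451016, minus strand) shares exonic bases with MIR198 on its own strand and with BTNL12P on the other, which had 10 and 5 reads. FSTL3, which like follistatin binds activins, had 7.04, 11.9 and 7.46 CPM against 12.1, 11.6 and 35.6 CPM, with the highest value again in PANC1OR replicate 3 (1.17 ± 0.47, adjusted p = 0.14; 0.45 without that library; adjusted p = 0.0184 without the low-count filter). CHRD, chordin, which binds BMPs, was low in both lines (0.36 ± 0.71, adjusted p = 0.791; -0.68 without PANC1OR replicate 3). BAMBI, a pseudoreceptor without a kinase domain, had 8, 4 and 8 reads in PANC1 and 2, 0 and 0 in PANC1OR, and PANC1 stood above PANC1OR by a scaled ratio of 13.1 (95% counting interval 3.18 to 115). It was called lower where the filter was not used, by edgeR (-3.47 ± 0.95, adjusted p = 0.00939) and by DESeq2 (-3.81 ± 1.37, adjusted p = 0.0379).

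The ID genes, early BMP targets that encode inhibitors of basic helix-loop-helix factors, did not move as a group. ID1, the most abundant of the 4 per kb of exon, had 113, 161 and 123 CPM in PANC1 and 137, 134 and 248 CPM in PANC1OR (log2 fold change 0.39 ± 0.28, adjusted p = 0.412), and was at 0.03 without PANC1OR replicate 3. ID2 had 12.5, 13.7 and 10.2 CPM against 4.71, 4.87 and 4.79 CPM. It was lower in every PANC1OR library and fell by 1.34 on the log2 scale (SE 0.22, adjusted p = 0.00431). ID3 had 52.4, 105 and 64.2 CPM in PANC1 and 38.7, 42 and 112 CPM in PANC1OR, so that PANC1 replicate 2 and PANC1OR replicate 3 were the high ones (-0.20 ± 0.45, adjusted p = 0.817). Without PANC1OR replicate 3 it was -0.88 (adjusted p = 0.0249). ID4 had 2.12, 1.46 and 2.08 CPM against 0.71, 0.312 and 0.826 CPM, again without overlap, and fell by 1.62 (SE 0.40, adjusted p = 0.0261), a call that was lost without any 1 library except PANC1 replicate 2 and PANC1OR replicate 3 (largest adjusted p 0.115). ID2 (ENSG00000115738) shares exonic bases with ID2-AS1, which had 60 and 41 reads.

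TGIF1, a nuclear repressor of SMAD-driven transcription, had 150, 157 and 150 CPM in PANC1 and 91.9, 94.1 and 110 CPM in PANC1OR. Every PANC1OR library was below every PANC1 library, with a log2 fold change of -0.63 ± 0.17 (adjusted p = 0.0347). The call was lost without any 1 of the libraries other than PANC1OR replicate 3 (largest adjusted p 0.165) and without the low-count filter (0.0903). SKI and SKIL, a pair of SMAD co-repressors, had log2 fold changes of -0.41 and -0.45 with adjusted p-values of 0.29 and 0.39. Without PANC1OR replicate 3 that of SKI was -0.68 (adjusted p = 0.00214) and that of SKIL -0.17. TGFBI, a matrix protein named for its induction by TGF-beta, had 45.3, 47.6 and 44.6 CPM against 57.6, 56 and 83.1 CPM, without overlap and without a call (0.52 ± 0.21, adjusted p = 0.146; 0.30 and adjusted p = 0.0491 without PANC1OR replicate 3).

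In all, 21 tested members had levels that did not overlap between the lines, where 36.5% of all tested genes did not overlap. They were the 17 called genes with LTBP3, TGFBR2, BMPR1A and TGFBI. The remaining 15 overlapped. BMP7, INHBA, GREM1 and FST are among the 21, passed the low-count filter through 1 line only and had to differ to be tested. The count of 21 is therefore a description. Of the 17 called genes, 8 have exons that overlap a gene on the opposite strand. Among the pathway genes named below, so do SMAD3, BMP8B, INHBE, FSTL4, ITGB8, THBS1, NEDD4L, CCN2, BHLHE40 and TAGLN. NRROS and TGIF2 share exonic bases with a gene on their own strand. Reads of such partners cannot be told apart here either.

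Around the members, 8 lists of other pathway genes held 100 genes, of which 63 were tested, 10 rose and 11 fell (39 were called without PANC1OR replicate 3, and 13 without PANC1 replicate 1 or without PANC1 replicate 3). Of the called genes, 4 (AMHR2, FSTL4, ITGB8 and MSX2) passed the low-count filter through 1 line only and had to differ to be tested, so these counts too are descriptions. Among all tested genes, 17.8% were called with all libraries, 44.1% without PANC1OR replicate 3 and 39.1% with GC offsets. The share was 9.86% without PANC1 replicate 1 and 9.31% without PANC1 replicate 3. Of the 8 SMAD genes, the cytoplasmic messengers of the receptors, none rose and 4 fell. SMAD9, a BMP-branch SMAD, had 7.47, 7.31 and 6.48 CPM in PANC1 and 0.673, 0.812 and 0.165 CPM in PANC1OR (log2 fold change -3.60 ± 0.42, adjusted p = 0.000784). SMAD3, of the TGF-beta branch, went from 827 ± 67.7 to 470 ± 65.5 CPM (SD, n = 3), a log2 fold change of -0.81 ± 0.18 (adjusted p = 0.0176). The inhibitory SMAD7 and SMAD6 stood at -1.31 ± 0.30 (adjusted p = 0.0182) and -1.14 ± 0.28 (adjusted p = 0.0238). The calls of SMAD7 and SMAD6 were lost without any 1 of the libraries other than PANC1OR replicate 3 (largest adjusted p 0.0772 and 0.108), and that of SMAD3 likewise except without PANC1 replicate 2 (0.0926). SMAD4, the shared mediator, was present at 56.8 ± 7.0 and 58.7 ± 11.5 CPM and was not called (0.05 ± 0.22, adjusted p = 0.92).

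Among 21 further ligands, 8 were tested, 2 rose and 1 fell, where 17.8% of all tested genes were called. GDF15, a stress-induced distant relative of the family, had 15.6, 25.2 and 19.6 CPM in PANC1 and 93.5, 95.5 and 275 CPM in PANC1OR (2.94 ± 0.47, adjusted p = 0.00341), and 2.23 without PANC1OR replicate 3. INHBE, an activin subunit best known from liver, rose by 2.28 ± 0.45 (adjusted p = 0.0103), a call lost without PANC1 replicate 1 or 3 (largest adjusted p 0.071). BMP8B fell, with -0.93 ± 0.25 (adjusted p = 0.039), a call lost without any 1 library except PANC1 replicate 2 and PANC1OR replicate 3 (largest 0.164) and without the low-count filter (0.0582). Of 9 further receptors and co-receptors 4 were tested and 1 rose: AMHR2, the type II receptor for anti-Müllerian hormone, had 0, 0 and 3 reads in PANC1 and 90, 38 and 84 in PANC1OR, so that the scaled ratio was 54.1 (95% counting interval 18.3 to 264). Its fitted log2 fold change was 5.74 ± 0.83 (adjusted p = 0.00226), and 9.08 without PANC1 replicate 3. Of 14 further antagonists 4 were tested and 1 rose, the follistatin-like FSTL4, from 0.117 ± 0.0638 to 0.996 ± 0.251 CPM (2.96 ± 0.53, adjusted p = 0.00624).

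Of 14 genes for ligand processing and activation, 9 were tested, 2 rose and 3 fell, where 17.8% of all tested genes were called. Called were 4 without PANC1 replicate 1 and 4 without PANC1 replicate 3 (9.86% and 9.31% of all genes). The count was 6 without PANC1OR replicate 3 (44.1%) and 8 with GC offsets (39.1%). ITGB8, the beta subunit of an integrin that frees TGF-beta from its latent complex, had 6.6, 4.07 and 6.42 CPM in PANC1 and 0.486, 0.25 and 0.248 CPM in PANC1OR (-4.01 ± 0.39, adjusted p = 0.000303). THBS1, thrombospondin 1, also an activator of latent TGF-beta, went from 10.9 ± 1.31 to 1.72 ± 0.320 CPM (-2.67 ± 0.26, adjusted p = 0.000296). FURIN, the convertase that cleaves the precursors, fell, with -1.15 ± 0.32 (adjusted p = 0.044), a call that held with 1 library fewer only where that was PANC1OR replicate 3 (-1.65; largest adjusted p otherwise 0.138). FBN1, the fibrillin to which latent complexes are tied, rose from 0.495 ± 0.162 to 3.15 ± 0.204 CPM (2.60 ± 0.33, adjusted p = 0.00117), and NRROS, a membrane anchor of latent TGF-beta best known from microglia, from 5.22 ± 0.401 to 30.6 ± 15.4 CPM (2.54 ± 0.36, adjusted p = 0.00218; 2.03 without PANC1OR replicate 3).

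Of 14 intracellular regulators, all tested, 2 rose and none fell, where 17.8% of all tested genes were called. The counts were 6 and 5 without PANC1OR replicate 3 (44.1% of all genes), and 2 and 4 with GC offsets (39.1%). NEDD4L, a ubiquitin ligase that acts on activated SMADs, went from 24.8 ± 2.67 to 96.7 ± 6.27 CPM (1.96 ± 0.19, adjusted p = 0.000274), and TGIF2, the paralog of TGIF1, from 17.9 ± 1.64 to 39.2 ± 5.97 CPM (1.13 ± 0.21, adjusted p = 0.00702). The TGIF2 call was lost without PANC1 replicate 1 or 3 (largest adjusted p 0.0555).

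Of 16 genes known as TGF-beta targets, 14 were tested, 2 rose and 4 fell, where 17.8% of all tested genes were called. It was 4 and 6 without PANC1OR replicate 3, when 44.1% of all genes were called. CCN2, a matricellular growth factor, had 126, 126 and 142 CPM in PANC1 and 44.1, 43.5 and 46 CPM in PANC1OR (-1.56 ± 0.17, adjusted p = 0.000509), and THBS1, SMAD7 and the actin-binding TAGLN (-1.10 ± 0.30, adjusted p = 0.0388) were the others that fell. The TAGLN call was lost without any 1 of the libraries other than PANC1OR replicate 3 (largest adjusted p 0.155). BHLHE40, a transcriptional repressor of the clock, went from 43.7 ± 2.73 to 162 ± 40.8 CPM (1.89 ± 0.22, adjusted p = 0.000799) and ANGPTL4, an inhibitor of lipoprotein lipase, from 12.0 ± 3.48 to 80.3 ± 55.4 CPM (2.75 ± 0.48, adjusted p = 0.00575), or 2.02 without PANC1OR replicate 3. Of 10 BMP targets, 8 were tested, none rose and 4 fell: SMAD6, SMAD7, SMAD9 and MSX2, a homeobox factor that went from 4.69 ± 0.408 to 0.423 ± 0.150 CPM (-3.42 ± 0.34, adjusted p = 0.000334). With GC offsets 2 of the BMP targets rose as well, ATOH8 (0.95, adjusted p = 0.00316) and DLX2 (1.04, adjusted p = 0.00318), both transcription factors, which the main test put at 1.03 ± 0.36 and 1.13 ± 0.42 without a call (adjusted p = 0.0921 and 0.107) and without overlap between the lines. Without PANC1OR replicate 3 they were at 0.55 (adjusted p = 0.043) and 0.53 (adjusted p = 0.0638). SMAD6, SMAD7 and SMAD9 are counted in the SMAD list as well, and THBS1 is in 2 lists.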

How the data were processed

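The authors deposited raw counts of reads for each gene. The submitters' processing notes name FastQC 0.11.5, cutadapt, STAR 2.5 as aligner, the GRCh38 build, and featureCounts (Subread 1.6.2). The sources used here do not give the annotation release, the strand setting or the handling of multiply aligned reads. The table held 5 columns without values, which were not used.

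With edgeR 4.0.16 in R 4.3.3, low-count genes were removed by filterByExpr, and libraries were scaled with TMM factors and compared by the quasi-likelihood F test over all 6 libraries without covariates. Adjusted p-values are Benjamini-Hochberg values over 18751 genes, and SEs are derived from the F statistic. CPM uses TMM-scaled totals. On simulated counts the test called 96 of 100 genes changed 4-fold and 16 of 100 changed 2-fold, with 5 false calls among 18223 genes. A 2-fold difference was thus often missed there. The simulation gave all genes the same dispersion, had no GC effect and changed only genes above 1 CPM. Its false calls therefore do not measure those in these libraries. Library totals were 10199268 to 26394388 reads. GENCODE release 44 gave positions, exon length and GC content (99.4% of tested genes), and RefSeq gave promoters. Alternatives were DESeq2 1.42.0, a likelihood ratio test, other scaling and filters, GC offsets, a replicate block and left-out libraries. Every called member, the ligands, the TGF-beta receptors and the ID genes are named with values in each library, and up to 4 called genes per pathway list by smallest p with a mean of at least 1 CPM. FSTL4, FURIN, TAGLN, ATOH8, DLX2, KRT19, CDH1 and SOX9 complete small counts and were named after their values were seen. A gene that the naming rule also lists is not reported here. The members and lists were chosen with earlier results of these data known.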

Additional observations from a re-analysis of the deposited data

How the results depend on the processing

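All 17 called members were also called, in the same direction, with DESeq2, with GC offsets and without PANC1OR replicate 3. For BMP7, INHBA, GREM1 and FST, which passed the low-count filter through 1 line only, this is a description. The member counts that follow are descriptions too. Numbers are called genes, called members and called pathway genes, which were 3345, 17 and 21 with all libraries. They were 7329, 27 and 38 with GC offsets, 6376, 27 and 36 with GC offsets and the replicate block, 11422, 28 and 46 without PANC1 replicate 2 and PANC1OR replicate 3, and 1172, 8 and 10 past the authors' stated cutoffs, an absolute log2 fold change over 2 and an adjusted p under 0.01. Leaving out 1 library gave 1821 to 8663, 10 to 24 and 13 to 39. The labels do not say if the replicate numbers pair the cultures. Deviations of same-numbered replicates from their line means had correlations of 0.52, -0.49 and -0.25. The correlation was 0.55 for PANC1 replicate 2 with PANC1OR replicate 3, which leaned the same way by base composition. Such correlations therefore cannot decide if the cultures are paired. The replicate block gave 2324, 12 and 19. The cause of these shifts was not tested.

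The sign turned for uncalled genes only. LTBP4 was at -0.03 without PANC1 replicate 2 and PANC1OR replicate 3 together and between 0.04 and 1.14 without 1 library, BMPR2 at -0.001 with GC offsets, and SMAD4 at -0.01 with GC offsets, with or without the block. Over the fits without 1 library, log2 fold changes ranged from -0.18 to 0.79 for TGFB1, -0.08 to 0.34 for TGFBR1, -0.09 to 0.20 for BMPR2, -0.68 to 0.78 for CHRD, -0.88 to 0.14 for ID3 and -0.07 to 0.18 for SMAD4. Depth limits the scarce members: GREM1, FST and INHBA rest on 1 to 3 reads in PANC1, and BMP2, BMP4, GDF5 and BAMBI were tested only where the low-count filter was not used.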
